A study of Mus musculus with 9 samples.

Results

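The T cell receptor genes described here are Cd3d, Cd3e, Cd3g, Cd247, Cd4, Cd8a, Cd8b1, Lat, Lck and Zap70, which encode the signalling chains of the receptor, its coreceptors and the first kinases and adaptor below it. They were chosen by name, and each gene was represented by the array row that carries its single symbol. Of the 10 genes, 9 were measured among 19938 named genes, each by 1 row, and no row carried the symbol Lck, so no value is given for it. RNA was measured on 9 Affymetrix arrays from mammary epithelial cell preparations of wild-type C3H female mice aged 8 to 9 weeks, with 3 arrays in each of 3 groups. All groups had been dissected and freed from fat tissue with collagenase. The untrypsinized group was taken before any trypsin, the trypsinized group after a digestion with trypsin, and the mock sorted group after trypsin and a mock fluorescence-activated cell sort. The arrays of a group are labelled as biological replicates and numbered 1 to 3, without the animals or the number of animals behind each, and a p-value here can speak only for the spread among these 9 arrays, part of which may be technical.

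T cells recognise peptides held on major histocompatibility molecules through a receptor whose variable chains have almost no signalling part of their own. The CD3 delta, epsilon and gamma chains and the zeta chain carry tyrosine motifs that are phosphorylated by the kinase Lck, which CD4 and CD8 bring to the receptor. The kinase Zap70 then binds these motifs and phosphorylates Lat, a membrane adaptor on which the downstream signalling complex assembles. Mammary epithelial cells are not known to use this receptor, and in the mammary gland T cells lie in the stroma, within the epithelium and in the lymph node of the fat pad. In such bulk preparations, fewer T cells and less RNA per T cell cannot be told apart.

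The promoters of 4 of the genes are printed because the CD3 genes lie next to each other in the genome and because Lat was the adaptor gene called higher in both comparisons with untrypsinized cells. Sequences are RefSeq's for the mouse build GRCm38.p6 and cover the 250 bases before the annotated start, 5′ to 3′ on the gene's strand. Cd3d is at chr9:44981536-44981785 on the plus strand, Cd3g at chr9:44980432-44980681 on the minus strand, Cd3e at chr9:45009612-45009861 on the minus strand and Lat at chr7:126369569-126369818 on the minus strand. Cd3g and Cd3d are transcribed away from each other from starts 1354 bases apart. Capitals mark matches, on either strand, to 5 motifs of 6 bases. The motif AGGAAG is the core bound by factors of the ETS family, and TGTGGT is bound by the RUNX factors that work in developing T cells. The motif CTTTGA is read by the TCF and LEF factors, while AGATAA is the GATA site and CAGGTG is an E box.
Cd3d: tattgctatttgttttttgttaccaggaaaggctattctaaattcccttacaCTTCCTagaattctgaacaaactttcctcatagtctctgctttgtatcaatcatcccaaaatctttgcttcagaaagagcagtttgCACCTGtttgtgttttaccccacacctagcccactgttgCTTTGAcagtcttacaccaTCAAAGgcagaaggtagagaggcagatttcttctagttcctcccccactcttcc
Cd3g: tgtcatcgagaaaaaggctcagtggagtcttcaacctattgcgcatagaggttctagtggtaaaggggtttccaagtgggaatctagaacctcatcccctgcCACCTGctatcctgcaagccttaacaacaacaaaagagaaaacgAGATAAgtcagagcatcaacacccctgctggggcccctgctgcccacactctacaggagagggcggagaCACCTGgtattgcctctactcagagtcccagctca
Cd3e: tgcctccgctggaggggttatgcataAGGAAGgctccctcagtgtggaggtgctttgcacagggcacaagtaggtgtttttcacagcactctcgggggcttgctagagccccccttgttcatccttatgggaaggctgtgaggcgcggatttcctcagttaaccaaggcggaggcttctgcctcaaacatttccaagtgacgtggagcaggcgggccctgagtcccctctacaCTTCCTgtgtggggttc
Lat: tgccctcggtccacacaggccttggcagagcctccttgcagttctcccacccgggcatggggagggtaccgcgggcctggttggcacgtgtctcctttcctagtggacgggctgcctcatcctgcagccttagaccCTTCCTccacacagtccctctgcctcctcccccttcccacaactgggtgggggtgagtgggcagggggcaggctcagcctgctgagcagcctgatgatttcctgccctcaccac
The Cd3d window held 4 matches, namely 2 of CTTTGA, 1 of AGGAAG and 1 of CAGGTG. The Cd3g window held CAGGTG 2 times and AGATAA 1 time, the Cd3e window held AGGAAG 2 times, and the Lat window held AGGAAG 1 time. No match overlapped another in these windows. Windows were found for 8 of the 10 genes, Lck included, and Cd4 and Cd8b1 are named only. Among these 8 genes, with 11 windows in all, AGGAAG occurred in 8 windows, CAGGTG in 6, TGTGGT in 2, CTTTGA in 2 and AGATAA in 1. Among all 32851 windows of this length in the table, 29.5% held AGGAAG, 17.2% CAGGTG, 14.0% TGTGGT and 13.8% CTTTGA, and AGATAA was in 3281 of them. Such matches are a description of the letters and not of factor binding.

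Values are log2 of the deposited intensity plus 1. The median intensity of an array was 345 to 408 over all rows. Of 18 luminal and basal mammary epithelial genes, 17 were measured. Their median level was 12.72 to 12.83 on every array, so markers of the labelled cell type were present throughout. None was called changed in any comparison, where a call needed a 1.5-fold difference. Smaller shifts were seen. At an unadjusted p of 0.05 by limma, 8 were higher and 4 lower in mock sorted than in untrypsinized cells, with 27.9% of all genes higher. The files give no detection call. As a guide to dim signal, 1027 olfactory receptor genes had a mean level of 6.55, with a 5th percentile of 4.71 and a 95th percentile of 8.20. The untrypsinized means of Cd3d, Cd247, Cd4 and Lat were below that 95th percentile, so whether they were above background there is not known and their fold changes may be understated. The trypsinized and mock sorted arrays numbered 1 stood apart from the other arrays of their groups for these genes, and results are therefore given with and without the arrays numbered 1.

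Among the CD3 chains, Cd3e, whose product pairs with both the delta and the gamma chain, had levels of 8.91, 9.45 and 9.06 on untrypsinized arrays 1, 2 and 3, of 11.45, 10.22 and 9.93 on trypsinized arrays and of 11.42, 10.23 and 9.99 on mock sorted arrays. The array numbered 1 was the lowest of the untrypsinized group and by far the highest of each other group, and all trypsinized and mock sorted values lay above all untrypsinized ones. Cd3g, the gamma chain, was at 8.11, 8.39 and 8.12 in untrypsinized cells, at 10.90, 9.44 and 9.16 in trypsinized cells and at 10.68, 9.39 and 9.02 in mock sorted cells. Its order of arrays was nearly that of Cd3e, again with no overlap between untrypsinized cells and either other group. Cd3d, the delta chain, was at 7.40, 7.50 and 7.58, then at 8.53, 7.91 and 7.75, and then at 8.30, 7.77 and 7.60 in the same order of groups. Its range was narrower, and its lowest mock sorted value was close to its highest untrypsinized one. Cd247, the zeta chain with the largest number of phosphorylation motifs, was at 7.98, 8.33 and 8.18 in untrypsinized, at 9.52, 8.73 and 8.56 in trypsinized and at 9.45, 8.67 and 8.44 in mock sorted cells. The untrypsinized arrays again lay below all others, and array 1 was again the highest after trypsin.

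The coreceptor gene Cd4, which marks helper and regulatory T cells, had levels of 8.17, 8.18 and 8.07 in untrypsinized cells, of 10.71, 9.25 and 8.99 in trypsinized cells and of 10.52, 9.13 and 8.84 in mock sorted cells. The untrypsinized arrays differed little, with an SD of 0.06, while the SD was 0.93 after trypsin and 0.90 after the mock sort, most of it from array 1. Cd8b1, the CD8 beta chain of conventional cytotoxic T cells, was at 8.28, 9.20 and 8.87, then at 11.43, 10.27 and 9.91, and then at 11.30, 10.07 and 9.69. It was the member with the widest spread among untrypsinized arrays (SD 0.46), where array 1 was the lowest, yet no untrypsinized value reached any of the other 6. Cd8a, the CD8 alpha chain, was at 8.09, 8.32 and 8.34 in untrypsinized, at 9.15, 8.69 and 8.61 in trypsinized and at 9.04, 8.74 and 8.50 in mock sorted cells. Both coreceptor types were therefore higher on the same arrays, with Cd8a over a smaller range than Cd8b1.

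Below the receptor, the adaptor gene Lat was at 7.99, 8.23 and 7.93 in untrypsinized, at 10.47, 9.12 and 9.08 in trypsinized and at 10.27, 9.16 and 8.96 in mock sorted cells. Arrays 2 and 3 after trypsin were close to each other, and array 1 lay above both. The kinase gene Zap70 had the smallest range of the members, at 8.99, 9.18 and 9.25, then at 9.81, 9.47 and 9.50, and then at 9.68, 9.46 and 9.43. Even so, its 6 trypsinized and mock sorted values all exceeded its 3 untrypsinized ones.

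**Figure D1:**
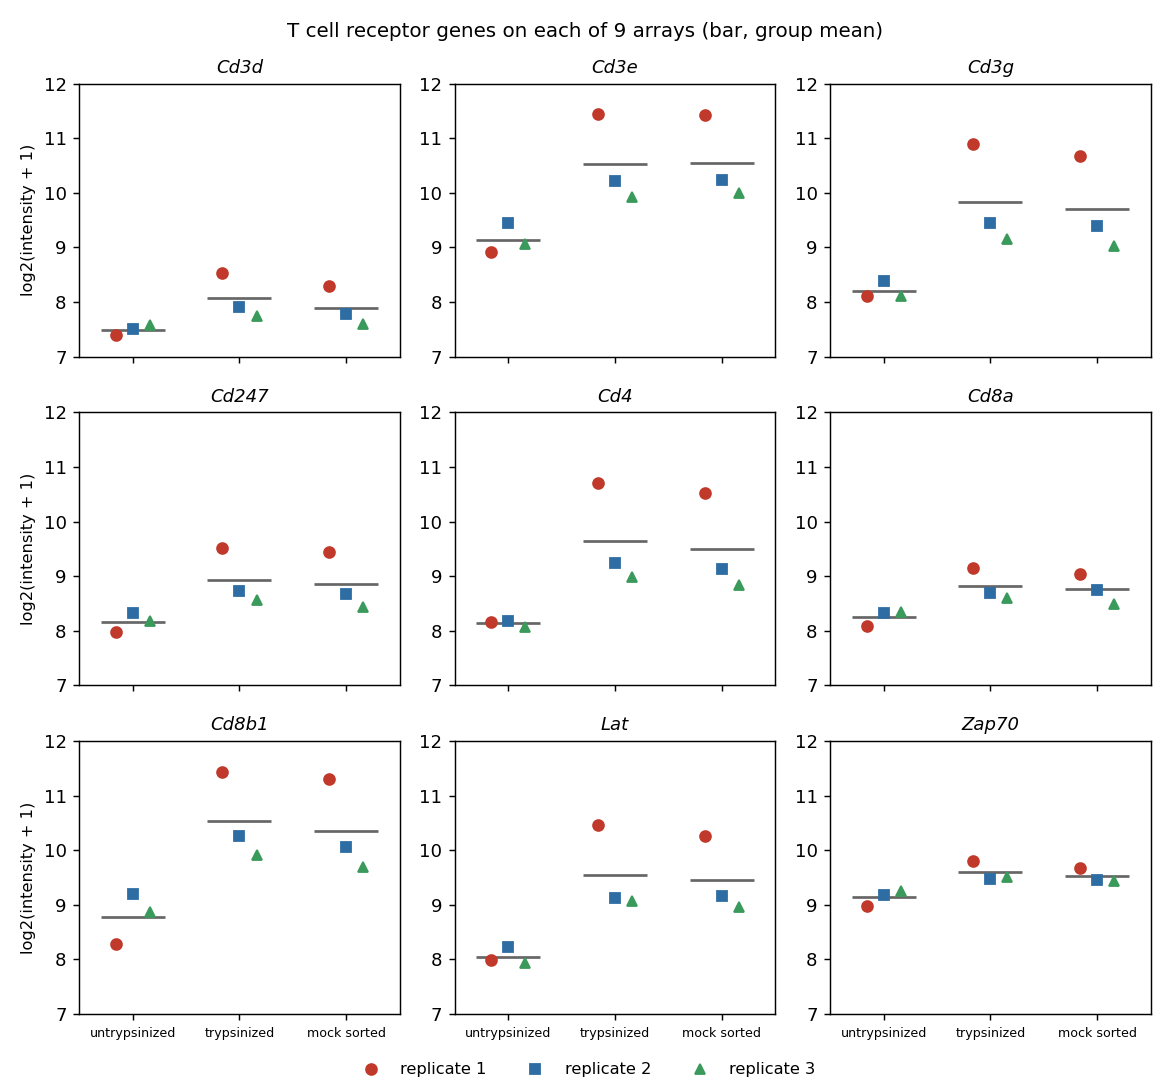
Level of each of the 9 measured genes as log2(intensity + 1) on each array, by group, with the replicate number as the symbol and the group mean as a bar. Replicate 1 is the highest point of the trypsinized and of the mock sorted group in 9 of 9 panels and of the untrypsinized group in 0.

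The comparison of trypsinized with untrypsinized cells, named in the submitters' design text, asked which transcripts differ once the collagenase-freed cells have been digested with trypsin. Cd8b1 and Lat were called higher, where a call by limma needed a 1.5-fold difference and an adjusted p no higher than 0.05. Cd8b1 rose 3.37-fold (log2 difference 1.75, SE 0.50, adjusted p = 0.0365), from 8.78 ± 0.46 to 10.54 ± 0.80 (mean ± SD, n = 3). Lat rose by 1.51 (SE 0.43, adjusted p = 0.0365), or 2.84-fold, from 8.05 ± 0.15 to 9.56 ± 0.79. These were 2 of the 9 measured members, against 0.532% of all genes called higher. Cd3g at 1.63 (SE 0.52, adjusted p = 0.0510), Cd4 at 1.51 (SE 0.52, adjusted p = 0.0661) and Cd3e at 1.39 (SE 0.46, adjusted p = 0.0588) had differences of similar size that missed the threshold. Zap70 at 0.46 (SE 0.11, adjusted p = 0.0200) and Cd8a at 0.56 (SE 0.17, adjusted p = 0.0455) passed the adjusted p but not the minimum fold. Cd247 at 0.77 (SE 0.31) and Cd3d at 0.57 (SE 0.23) had an adjusted p of 0.0968 and 0.0971.

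Read without the minimum fold, 4 of 9 members passed in this comparison, against 13.9% of all genes. At an unadjusted p of 0.05, 9 of 9 were higher, against 22.6% of all genes, and the groups did not overlap for 9 of 9, against 25.0% of all genes. The median difference was 1.39 over the members and 0.04 over all genes. With each array set to a common median, the median over all genes moved to -0.09 and that of the members to 1.26, and 4 members were called. Without any 1 of the 3 untrypsinized arrays, or without trypsinized array 1, 0 members were called. The differences stayed of similar size without 1 untrypsinized array, with Cd8b1 at 1.50 to 1.96 and Lat at 1.45 to 1.59. Without trypsinized array 1 they were 1.31 and 1.05. Without trypsinized array 2 or mock sorted array 2, 1 was called, and without mock sorted array 1, which only narrows the shared spread, 5 were. A setting that let the spread vary with intensity, robustly, called 0, with an adjusted p of 0.0676 for Cd8b1 and 0.0670 for Lat.

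The step from trypsinized to mock sorted cells, the other comparison of the design text, asked what a pass through the sorter adds. No member was called changed by limma, against 1.19% of all genes called in either direction. In this fit, which does not pair the arrays, the count at an unadjusted p of 0.05 was also 0 of 9, against 17.2% of all genes, and the groups did not overlap for 0 members, against 24.0% of all genes. Differences ran from -0.19 for Cd8b1 to 0.02 for Cd3e, with a median of -0.09 against 0.00 over all genes. The 95% confidence intervals reached from -1.35 to 1.07 over the 9 members, so changes of more than 2-fold in either direction were within them for some. The replicate numbers pair the trypsinized and mock sorted arrays, as far as the values show, and the difference within a pair was -0.23 to 0.07. Of the 27 such differences 23 were below 0, and 6 members were lower in all 3 pairs. With the number as a block in a fit of these 6 arrays, 4 members were lower at an unadjusted p of 0.05, against 13.1% of all genes. Their intervals lay below 0, from -0.28 to -0.07 for Cd3d, from -0.27 to -0.01 for Cd3g, from -0.25 to -0.05 for Cd4 and from -0.29 to -0.08 for Cd8b1. The intervals of the other 5 members spanned 0 and reached 0.12 at most. After adjustment over all genes 0 members passed in this paired fit, with a lowest adjusted p of 0.0986, for Cd8b1. The paired fit was added after seeing the data, with a pairing read from the same values. Its p-values and intervals depend on that choice.

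The comparison of mock sorted with untrypsinized cells spans both steps and is not in the design text. It shares its untrypsinized arrays with the trypsin comparison, and its values are given beside those above and not as a second line of evidence. Cd8b1 rose by 1.57 (SE 0.50, adjusted p = 0.0384), Lat by 1.41 (SE 0.43, adjusted p = 0.0323) and Cd3e by 1.41 (SE 0.46, adjusted p = 0.0415), which is 2.97-fold, 2.66-fold and 2.65-fold. These were 3 of 9 members, against 1.08% of all genes called higher. Cd3g at 1.49 (SE 0.52) and Cd4 at 1.36 (SE 0.52) missed the threshold, with an adjusted p of 0.0505 and 0.0698. Cd8a at 0.51 (SE 0.17, adjusted p = 0.0468) and Zap70 at 0.39 (SE 0.11, adjusted p = 0.0245) were under the minimum fold. Cd247 differed by 0.69 (SE 0.31, adjusted p = 0.105) and Cd3d by 0.39 (SE 0.23, adjusted p = 0.193).

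Without the minimum fold, 5 of 9 members passed here, against 21.0% of all genes. At an unadjusted p of 0.05, 7 of 9 were higher, against 27.9% of all genes, and the groups did not overlap for 9 of 9, against 28.7% of all genes. The median was 1.36 over the members and 0.05 over all genes, and 1.21 and -0.09 with a common array median. Without any 1 untrypsinized array, without mock sorted array 1 or without mock sorted array 2, 0 members were called. The differences without 1 untrypsinized array were 1.32 to 1.78 for Cd8b1, 1.36 to 1.50 for Lat and 1.29 to 1.56 for Cd3e. Without mock sorted array 1 they were 1.09, 1.01 and 0.97, and without mock sorted array 2 they were 1.71, 1.56 and 1.57. Without trypsinized array 2, 1 was called, and 5 were without trypsinized array 1 or without mock sorted array 3. With array weights 1 was called, Lat at an adjusted p of 0.0480, and the robust trend with intensity called 0.

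**Figure D2:**
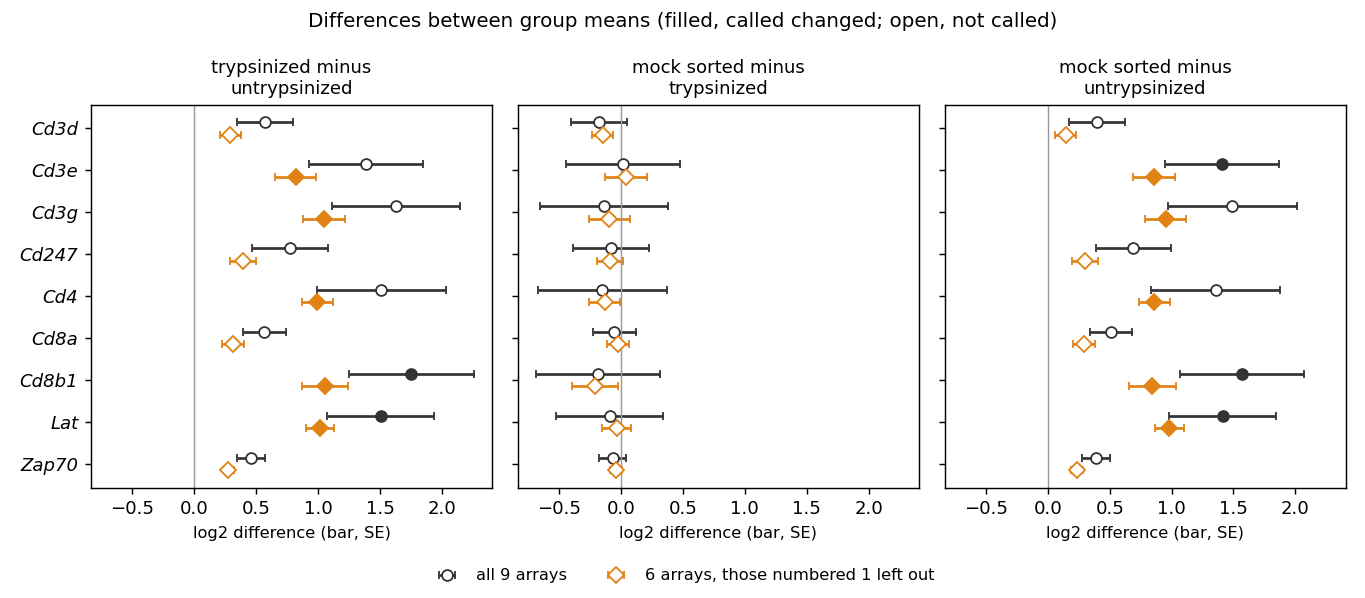
Log2 difference between group means for each measured gene in the 3 comparisons, with its SE, from all 9 arrays (circles) and without the arrays numbered 1 (diamonds), and with filled symbols for genes called changed. Filled circles stand at Cd8b1 and Lat on the left and at Cd3e, Cd8b1 and Lat on the right, while filled diamonds stand at Cd3e, Cd3g, Cd4, Cd8b1 and Lat in both.

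Set beside the mean of arrays 2 and 3, array 1 was higher by 0.32 (Zap70) to 1.60 (Cd3g) log2 units in the trypsinized group, with a median of 1.35 over the members. In the mock sorted group it was higher by 0.23 (Zap70) to 1.54 (Cd4), with a median of 1.21. In the untrypsinized group the median was -0.23, and array 1 was the lowest for 7 of 9 members. An excess of array 1 over 1 log2 unit was found for 112 genes (0.562%) in the trypsinized and 111 genes (0.557%) in the mock sorted group, and 5 members were among them in each, namely Cd3e, Cd3g, Cd4, Cd8b1 and Lat. In the untrypsinized group 13 genes (0.0652%) and 0 members had such an excess. Array 2 was above array 3 for 6 members before trypsin, for 8 after trypsin and for 9 after the mock sort.

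On the linear scale, each gene's excess over its own untrypsinized mean allows the arrays to be compared without setting one gene's brightness against another's. The Cd3e intensity exceeded its untrypsinized mean of 570 by 2220, 622 and 401 on trypsinized arrays 1, 2 and 3, and by 2170, 629 and 448 on mock sorted arrays. For Cd4 the excess over 281 was 1396, 325 and 226 after trypsin and 1187, 278 and 176 after the mock sort. Within both groups the order of arrays was the same for these genes, with array 1 holding most of the excess. Over the 9 members, the excess of trypsinized array 1 was 2.16 (Zap70) to 5.06 (Cd4) times the mean of the other two, with a median of 3.95, and array 1 held 51.9% to 71.7% of the summed excess of the 3 arrays. In the mock sorted group the same ratio was 1.92 (Zap70) to 5.27 (Cd3d), with a median of 4.20. The excess of mock sorted array 1 was 0.711 (Cd3d) to 0.977 (Cd3e) times that of trypsinized array 1, with a median of 0.846.

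With the arrays numbered 1 left out of every group, the differences from untrypsinized cells and their SEs were smaller. In the trypsin comparison 5 of 9 members were then called higher, against 0.507% of all genes, and the median over the members was 0.82. They were Cd8b1 at 1.06 (SE 0.19, adjusted p = 0.0324), Cd3g at 1.05 (SE 0.17, adjusted p = 0.0253), Lat at 1.02 (SE 0.12, adjusted p = 0.0117), Cd4 at 0.99 (SE 0.13, adjusted p = 0.0150) and Cd3e at 0.82 (SE 0.17, adjusted p = 0.0425). Mock sorted against untrypsinized cells gave the same 5 genes, against 0.943% of all genes, with 0.98 for Lat, 0.95 for Cd3g, 0.86 for Cd4, 0.86 for Cd3e and 0.84 for Cd8b1. For these 5 genes the difference was 1.4 to 1.9 times, and its SE 2.7 to 4.1 times, as large with all 9 arrays. Because arrays numbered 1 stood apart for these same genes, leaving them out narrows the spread by choice. The larger count of calls, from 2 arrays per group, is therefore not independent evidence. Mock sorted against trypsinized cells gave 0 calls among the members, with a median of -0.09. The direction was thus the same with and without array 1 for all 9 members in both comparisons with untrypsinized cells.

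Other genes act with the receptor. Of 32 further genes of receptor signalling, 30 were measured, and the median difference after trypsin was 0.62, against 0.04 over all genes. Of these, 1 was called higher, against 0.532% of all genes. It was Nfatc2, a transcription factor activated by the receptor's calcium signal, which rose by 0.72 (SE 0.05, adjusted p = 0.000205). Nfatc2 was at 9.65, 9.68 and 9.71 in untrypsinized cells and at 10.43, 10.31 and 10.46 in trypsinized cells, with no array standing apart, and it is also made outside T cells. Fyn, a kinase related to Lck that many cell types also make, was the other gene of the list called in any comparison. It fell by 0.84 (SE 0.19, adjusted p = 0.00931) between untrypsinized and mock sorted cells, opposite to the receptor genes. Without the arrays numbered 1, 5 genes of the list were called higher after trypsin, against 0.507% of all genes. They were Cd2, Cd27, Cd5, Nfatc2 and Rasgrp1.

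Among 9 measured segments of the receptor's variable and constant regions, 2 were called higher after trypsin, against 0.532% of all genes. After trypsin and the mock sort 3 were called higher than in untrypsinized cells, against 1.08% of all genes. Trav7d-4 rose by 1.64 (SE 0.31, adjusted p = 0.00854) and Trav14-1 by 1.31 (SE 0.35, adjusted p = 0.0282) after trypsin. Both are alpha chain variable segments, and near-identical copies of such segments may share probes, so the segment named is uncertain. Their untrypsinized levels were 4.31 to 4.73 and 5.65 to 6.13, below the mean of the olfactory receptor genes. Trav7n-5, called at 0.70 (SE 0.21, adjusted p = 0.0306) between untrypsinized and mock sorted cells, did not pass after trypsin alone, with 0.49 and an adjusted p of 0.119.

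Further lists hold genes that divide T cells into classes, and their counts at an unadjusted p of 0.05 are to be read against the 22.6% of all genes that were higher after trypsin at that p. Of 13 measured genes of naive and memory T cells, 0 were called after trypsin by limma with all arrays, 7 were higher at an unadjusted p and the median was 0.39. Without the arrays numbered 1, Lef1, a transcription factor of naive T cells, was called at 0.92 (adjusted p = 0.0313), and Il7r, the receptor for a survival cytokine, at 0.85 (adjusted p = 0.0308). S1pr1, which guides T cells out of lymph nodes and is also abundant in endothelium, fell by 1.21 (SE 0.26, adjusted p = 0.00725) between untrypsinized and mock sorted cells. Of 17 effector, regulatory and activation genes 0 were called in any comparison, with a median of 0.24 after trypsin and 5 higher at an unadjusted p, a share near that of all genes. Of 13 natural killer and cytotoxic genes 0 were called, with a median of 0.28, 4 higher and 1 lower at an unadjusted p. The 6 gamma delta and mucosal T cell genes had a median of 0.22 with 0 called and 1 higher at an unadjusted p, and the 6 thymocyte-restricted genes had a median of 0.09 with 0 called and 0 at an unadjusted p. After trypsin 17 of 17 effector and 11 of 13 natural killer genes had a difference above 0. Groups did not overlap, with trypsinized higher, for 8 naive and memory, 8 effector and 7 natural killer genes. The same held for 2 gamma delta genes, 0 thymocyte genes and 25.0% of all genes.

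B cell and shared leukocyte genes were, like the receptor genes, highest on array 1 after trypsin and after the mock sort, and their part in the result was not tested. Of 15 measured B cell genes, 14 were higher after trypsin, with a median of 0.83 and 0 called, and 2 were higher at an unadjusted p of 0.05, against 22.6% of all genes. Their summed intensity was 6552 to 8796 on untrypsinized, 7879 to 17296 on trypsinized and 6056 to 13398 on mock sorted arrays, and their median on array 1 was above that of arrays 2 and 3 by 1.15 after trypsin and by 0.99 after the mock sort. It was above them by 0.33 in untrypsinized cells too, where that of the receptor genes was lower by 0.14, and the sums of 6056 and 6982 on mock sorted arrays 2 and 3 were not above the untrypsinized range. Between untrypsinized and mock sorted cells 0 B cell genes were higher at an unadjusted p. Without the arrays numbered 1, limma called 2 B cell genes higher after trypsin, against 0.507% of all genes. They were Fcrla at 0.80 (adjusted p = 0.0195) and Spib at 0.77 (adjusted p = 0.0321). Ebf1 was called lower in that fit, and the median over the B cell genes was 0.56. Ebf1, a B lineage factor that fat and stromal cells also make, went the other way and fell by 0.78 (SE 0.12, adjusted p = 0.00873) from trypsinized to mock sorted cells. Of 12 leukocyte genes shared by most white blood cells, 12 were higher after trypsin, 10 without overlap, against 25.0% of all genes, with a median of 0.72, 0 called and 4 higher at an unadjusted p. Their summed intensity was 13981 to 14899, 17383 to 31337 and 15435 to 28404 in the same order of groups. Without the arrays numbered 1, limma called 1 of them higher after trypsin, Rac2 at 0.68 (adjusted p = 0.00596), against 0.507% of all genes.

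The median of 16 macrophage and dendritic cell genes was -0.02 after trypsin, with 0 called and, at an unadjusted p of 0.05, 5 higher and 3 lower. Adgre1 and Mrc1, both macrophage surface genes, fell by 0.66 (adjusted p = 0.000106) and 0.81 (adjusted p = 0.00120) between untrypsinized and mock sorted cells. They were the 2 genes of the list called in that comparison, where 677 of 19938 genes were called lower. The list median there was -0.14, with 6 of 16 genes above 0. At an unadjusted p, 3 were higher and 7 lower. The summed intensity of the 16 genes was 17816 to 18670 in untrypsinized, 17215 to 20746 in trypsinized and 15145 to 18628 in mock sorted cells. The median of the 16 genes was also highest on array 1 after trypsin and after the mock sort. It lay above arrays 2 and 3 by 0.39 and by 0.33, with -0.01 in untrypsinized cells. Of 7 measured lymph node stroma genes 0 were called after trypsin, with a median of 0.12 and, at an unadjusted p, 1 higher and 1 lower. The higher one was Glycam1, by 0.78 (SE 0.33, adjusted p = 0.114 by limma), and the lower one Ltbr, by 0.13. Glycam1 was at 12.71, 11.51 and 12.83 in untrypsinized and at 13.39, 12.93 and 13.06 in trypsinized cells. The epithelial genes had a median of 12.72 to 12.83, and which cells made Glycam1 was not tested. Madcam1, a homing protein of lymphoid vessels in the gut, fell by 0.69 (SE 0.12, adjusted p = 0.0135) from trypsinized to mock sorted cells. The 2 measured red blood cell genes had 0 calls, 0 at an unadjusted p and a median of 0.02 after trypsin. The median of the 17 epithelial genes on array 1 differed from that of arrays 2 and 3 by -0.01 after trypsin and by -0.05 after the mock sort, so the excess of array 1 was not seen there.

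**Figure D3:**
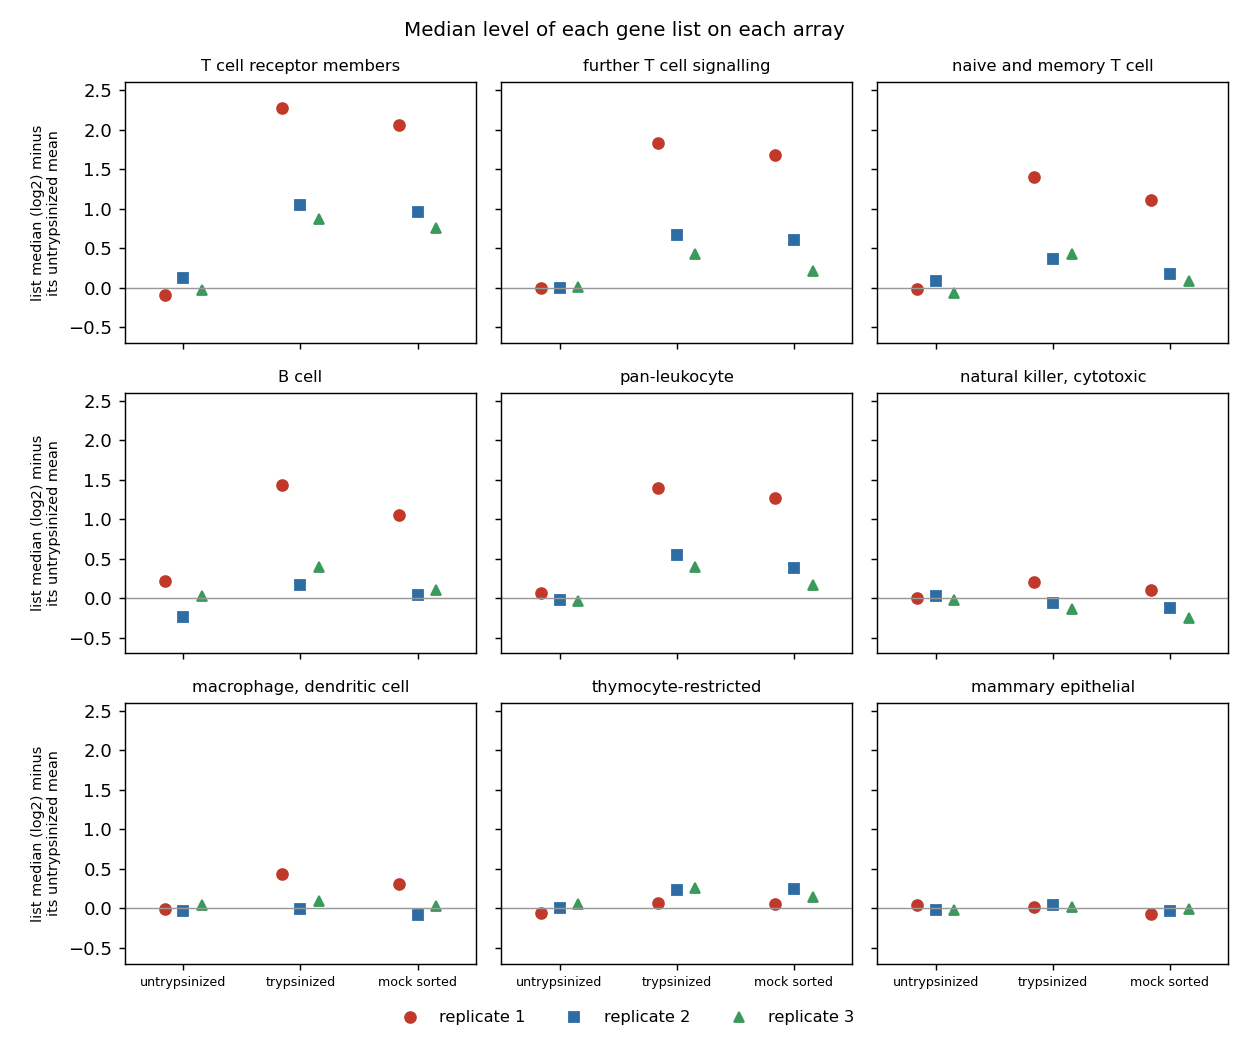
Median log2(intensity + 1) of each gene list on each array, minus its mean over the 3 untrypsinized arrays, by group and replicate number. Replicate 1 is the highest after trypsin and after the mock sort in 7 of the 9 panels, while in the thymocyte and mammary epithelial panels it is not the highest of either group.

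The genes whose pattern over the 9 arrays was most like that of the members were found by the root mean square difference, in log2 units, between each gene's centred values and the median centred profile of the members. Genes with predicted-gene, clone or small RNA symbols were left out before ranking. The ranking is a description with no test, and the points share their arrays. The closest were Dapl1 at 0.0898, Lef1 at 0.101, Cd27 at 0.122, Cd5 at 0.124, Grap2 at 0.129 and Il7r at 0.138. Cd2 followed at 0.139, Trav14-1 at 0.140, Ccr9 at 0.158, Rasgrp1 at 0.164, Tespa1 at 0.180 and Cd96 at 0.188. Cd27, Cd5, Grap2, Cd2 and Rasgrp1 are in the list of further signalling genes, and Lef1, Il7r and Ccr9 in that of naive and memory genes. Among the members themselves the same measure ran from 0.0971 for Lat and 0.0998 for Cd3e to 0.494 for Cd8a and 0.588 for Zap70, whose profiles were flatter. Lef1 was at 7.87, 8.35 and 7.92 in untrypsinized, at 10.47, 9.13 and 8.98 in trypsinized and at 10.38, 9.01 and 8.77 in mock sorted cells, and its difference after trypsin was 1.48 with an adjusted p of 0.0591. Of the 12 genes, Trav14-1 was called higher after trypsin by limma with all arrays, against 0.532% of all genes. The adjusted p of the other 11 was 0.0575 to 0.115. Because the 12 were chosen by these same values, their differences and adjusted p are not separate evidence.

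**Figure D4:**
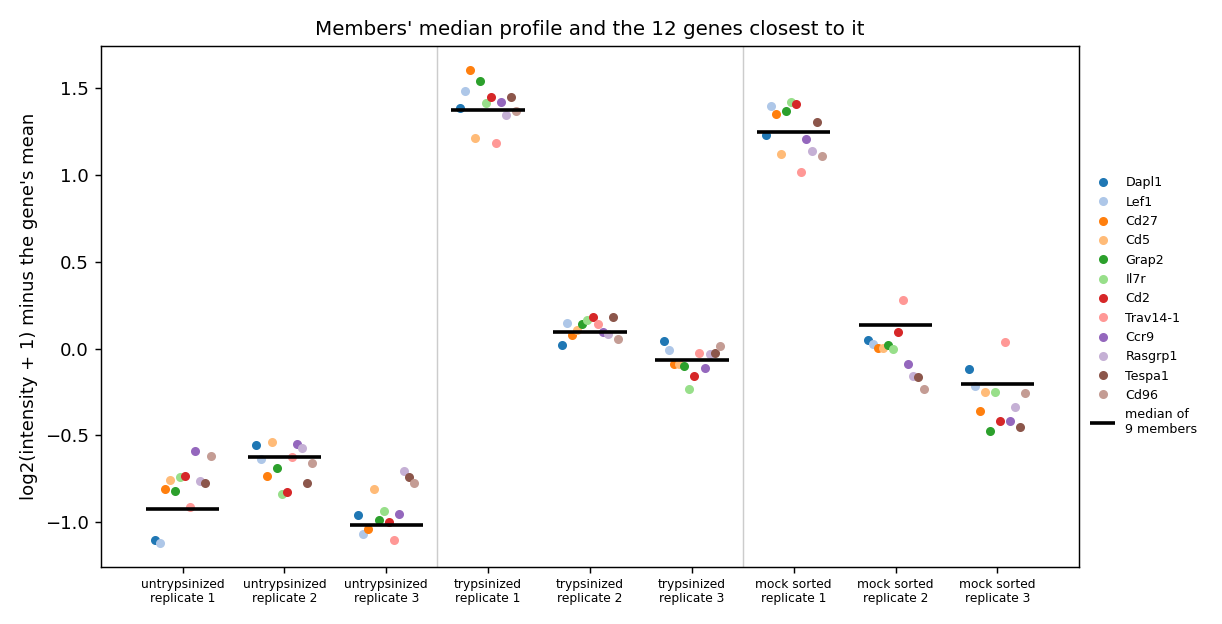
Levels of the 12 genes of most similar pattern, each as log2(intensity + 1) minus the gene's own mean over the 9 arrays. Predicted-gene, clone and small RNA symbols were left out, and black bars show the median profile of the 9 measured receptor genes. Points lie above 0.9 on the arrays numbered 1 of the trypsinized and mock sorted groups and below -0.5 on the untrypsinized arrays.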

How the data were processed

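The authors deposited linear intensities, 1 per row and array, in 35512 rows for 9 arrays of total RNA. For background correction, probe summary and scaling, the method is not given in the sources used here, and the submitters' processing notes name limma. Rows were named through a platform annotation table, which may be out of date. A single symbol was listed for 21789 rows, several for 1621 and none for 12102, and 21698 symbols were updated by gene number with RefSeq's GRCm38.p6 gene table. The row with the highest mean stood for each of 19938 genes, of which 999 had more than 1 row.

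Values were tested as log2(intensity + 1) with limma 3.58.1 in R 4.3.3, with 1 mean per group over all 9 arrays and Benjamini-Hochberg adjustment over all genes. This main fit treats the 9 arrays as independent, so its SEs and adjusted p leave out any pairing of trypsinized with mock sorted arrays. The fit was tested on simulated data with known changes. Those values were drawn independently for each array, with no pairing and no array standing apart. The simulation therefore does not cover these features of the real arrays. The submitters' design text gives a p of 0.05 and a fold of 1.5 without saying whether p was adjusted. The number of arrays limits the precision. The members and gene lists were chosen with earlier results of these data known, so their pattern is not independent evidence. All members are named, and other genes come from up to 4 of each list with the smallest p, from those called changed, or from the 12 of most similar pattern.

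Deviations from the group mean correlated over genes at 0.53, 0.29 and 0.29 between same-numbered trypsinized and mock sorted arrays. Across numbers the correlations were -0.36 to -0.31 where array 1 took part, and 0.16 and 0.13 between arrays 2 and 3. Same-numbered arrays of these groups were taken as paired, from the values and not from the labels, with the clearest separation for array 1. The same-number correlations were 0.11, 0.04 and -0.04 between untrypsinized and trypsinized arrays and 0.32, 0.18 and 0.06 between untrypsinized and mock sorted arrays. These were not taken as paired, although 0.32 is above the 0.29 of pairs that were, and the labels do not settle it. Alternatives covered the threshold, scaling, pseudocount, dim genes, rows per gene, variance model, array weights, the arrays fitted, the replicate block and each array left out. A block in the 6 arrays compared, and leaving out array 1 of the trypsinized and mock sorted groups alone, were added after seeing the data. Promoters were read with Python 3.11.15.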

Additional observations from a re-analysis of the deposited data

How the results depend on the processing

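In 25 alternatives for each comparison, 675 changes of single genes were computed, and 22 had the opposite sign to the reported change, all between trypsinized and mock sorted cells where no member was called. In that comparison 0 members were called under every alternative run, and with each array left out in turn the median over the members ranged from -0.42 to 0.26. After trypsin 2 members were called. The count was 6 at an unadjusted p with the minimum fold kept, and 4 at an adjusted p without the minimum fold. It was 4 with a common array median and 4 among genes with a mean log2 intensity of 7 or more. The count was 0 with every row tested and 0 with a robust trend of the spread with intensity. It was 5 without the arrays numbered 1, 5 without those of the trypsinized and mock sorted groups alone, and 0 to 5 with single arrays left out, with a median of 0.93 to 1.69. Between untrypsinized and mock sorted cells 3 members were called. The count was 5 at an unadjusted p with the minimum fold kept, and 5 at an adjusted p without the minimum fold. It was 1 with every row tested, 0 with the robust trend, 1 with array weights and 5 with only the 6 arrays compared. It was 5 without the arrays numbered 1, 5 without those of the trypsinized and mock sorted groups alone, and 0 to 5 with single arrays left out, with a median of 0.85 to 1.67. The replicate block over all 9 arrays gave 5 calls after trypsin and 5 between untrypsinized and mock sorted cells. A replicate block in the 6 arrays compared gave 0 and 4. Whether the numbers pair the untrypsinized arrays with the others is not known. The block changed no call between trypsinized and mock sorted cells. Over these alternatives 45 calls of single genes were gained and 41 lost, and the cause was not tested. Dim untrypsinized levels and 3 arrays per group limit what can be read from these genes.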
